A study of Mus musculus with 4 samples.

Results

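The genes described here are 8 of the 383 genes on the probe panel, taken by name from the count columns for their part in microglial activation and in the lysosome: Trem2, Tyrobp, Cd68, Ctsd, Ctss, Lgmn, Laptm5 and Cd37. They were followed through the cell classes, through white and grey matter, and from 2 to 18 months of age. The data come from MERFISH, an imaging method in which barcoded probes read out individual RNA molecules inside tissue, in coronal sections through the striatum of both hemispheres. There were 2 sections of the Young group (2 months) and 2 of the Aged group (18 months), from C57BL/6NTac mice per the methods, and the labels name no treatment or altered allele in either group. The study's reporting summary names animals of both sexes, in alternating batches, and the sex behind each section is not given. A part of sex in the age values therefore cannot be told apart. The labels do not name the animals, while the methods describe replicates in general as biological. Each p-value of a change with age within a class measures the spread between the 2 sections of an age. The p-values of tests that compare white and grey matter measure how that difference varies between sections, with level differences between sections taken out.

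Microglia are the resident phagocytes of the brain tissue, and other macrophages line its vessels and meninges. Trem2 is a surface receptor for lipids and cell debris that signals through the adaptor protein encoded by Tyrobp, and this pair is known for its part in the response of microglia to damage. What is taken up is broken down in lysosomes, where cathepsin D (Ctsd), cathepsin S (Ctss) and legumain (Lgmn) cut proteins, while Cd68 and Laptm5 encode membrane proteins of late endosomes and lysosomes and Cd37 encodes a tetraspanin, a membrane scaffold protein of leukocytes.

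After filters on gene number and volume, 281824 of 320663 segmented cells were kept, with 18765491 (aged 1) to 36035355 (young 1) transcripts per section. Levels are given as transcripts per 10000 transcripts of the same cells, so that each level is a share of this panel. Cell classes were rebuilt from clusters and marker genes, with the 8 genes left out of both, and a cell was left out as mixed where 3 or more markers of its class were detected together with 3 or more of a different class. Of 9903 microglia-like cells 3643 remained, and of 846 macrophage-like cells 406. The share left out was 69.0% and 63.5% of microglia-like cells in the young and 57.0% and 62.6% in the aged sections. The remaining microglia-like cells held a median of 100 and 92 transcripts in the young and of 66 and 73 in the aged sections.

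The names of both phagocyte classes were checked on markers that are not among the 8 genes. The 7 microglial markers, P2ry12 and Cx3cr1 among them, took 3435 and 3385 of 10000 transcripts in microglia-like cells of the young sections. In the aged sections they took 3048 and 3094 there, and in macrophage-like cells they took 281 to 452. The 7 macrophage markers, Mrc1 and Pf4 among them, took 342 to 475 in macrophage-like and 16.2 to 24.2 in microglia-like cells. The 7 astrocyte markers took 1383 to 1647 in macrophage-like cells, more than the macrophage markers, and the microglial markers also exceeded the macrophage markers there in 3 of the 4 sections (408, 418 and 452 against 342, 394 and 342). Among the 10 genes that led this cluster by fold, 2 were macrophage markers (Mrc1 and Ms4a7) and 2 microglial markers (Csf1r and P2ry13). The class named macrophage-like is therefore no pure population, and the part of the other cells in its values was not tested. In microglia-like cells astrocyte markers stood at 70.5 and 93.6 in the young and at 131 and 120 in the aged sections, and neuron markers at 68.8 and 70.0 against 102.5 and 87.7. Both sums were thus higher, and that of the microglial markers lower, in the aged sections without overlap. The part of these shifts in the age results was not tested.

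The DNA before the start sites of 3 of the genes is shown because the age and zone results turn on Trem2, Ctsd and Ctss. The sequences are those of RefSeq on mouse build GRCm38.p6, 250 bases up to the base before the start site, written 5′ to 3′ on the strand of the gene. Capitals mark matches on either strand to CACGTG (the E-box, a word known from promoters of lysosomal genes), GAGGAA (a core of ETS sites such as that of the myeloid factor PU.1) and TGANTCA (AP-1).
Trem2 (chr17:48346151-48346400, plus strand): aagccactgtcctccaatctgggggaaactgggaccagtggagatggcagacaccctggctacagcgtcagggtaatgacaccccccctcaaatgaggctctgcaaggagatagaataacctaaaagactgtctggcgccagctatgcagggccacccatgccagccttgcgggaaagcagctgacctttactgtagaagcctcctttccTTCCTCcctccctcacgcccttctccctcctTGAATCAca
Ctsd (chr7:142387828-142388077, minus strand): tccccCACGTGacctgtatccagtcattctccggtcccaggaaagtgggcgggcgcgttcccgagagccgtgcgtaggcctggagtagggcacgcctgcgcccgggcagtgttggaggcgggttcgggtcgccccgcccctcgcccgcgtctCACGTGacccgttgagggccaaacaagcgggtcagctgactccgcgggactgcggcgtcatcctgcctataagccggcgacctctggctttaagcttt
Ctss (chr3:95526536-95526785, plus strand): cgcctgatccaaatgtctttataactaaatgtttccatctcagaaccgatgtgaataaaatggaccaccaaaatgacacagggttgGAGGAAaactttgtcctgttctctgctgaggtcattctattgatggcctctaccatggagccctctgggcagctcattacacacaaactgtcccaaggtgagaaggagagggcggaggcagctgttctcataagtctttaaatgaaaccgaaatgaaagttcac

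Ctsd carried the E-box word 245 and 98 bases before the start. Trem2 carried the ETS word 40 bases and the AP-1 word 9 bases before the start, and Ctss the ETS word 164 bases before it. Among 32851 windows of this length, 6.02% held CACGTG, 23.3% held GAGGAA and 6.75% held TGANTCA. Of the 8 windows found for 7 of the 8 genes, 3 held the first word, 5 the second and 2 the third. Tyrobp (chr7:30413782-30417582) is named by its gene position on the same build only. These are matches of letters and say nothing of what binds there.

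With mixed cells left out, all 8 genes had their highest level in microglia-like cells and their second highest in macrophage-like cells. For each gene the 4 sections of both classes then lay apart from each other and from every further class. With mixed cells kept, this order did not hold for Cd68, and the sections of both classes overlapped for Tyrobp. The classes come from clusters of the same cells, so this order is a description without a test. Trem2, the receptor, stood at 79.3 and 58.1 per 10000 in microglia-like cells of the young sections and at 38.7 and 43.5 in the aged ones. In macrophage-like cells it lay between 7.22 and 8.80, so that the mean of the first class was 6.81 times that of the second. The 6 further classes had mean Trem2 levels from 0.262 in oligodendrocyte precursor-like (OPC-like) to 0.809 in vascular-like cells, and each neighbouring pair in that order overlapped in its sections.

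**Figure D1:**
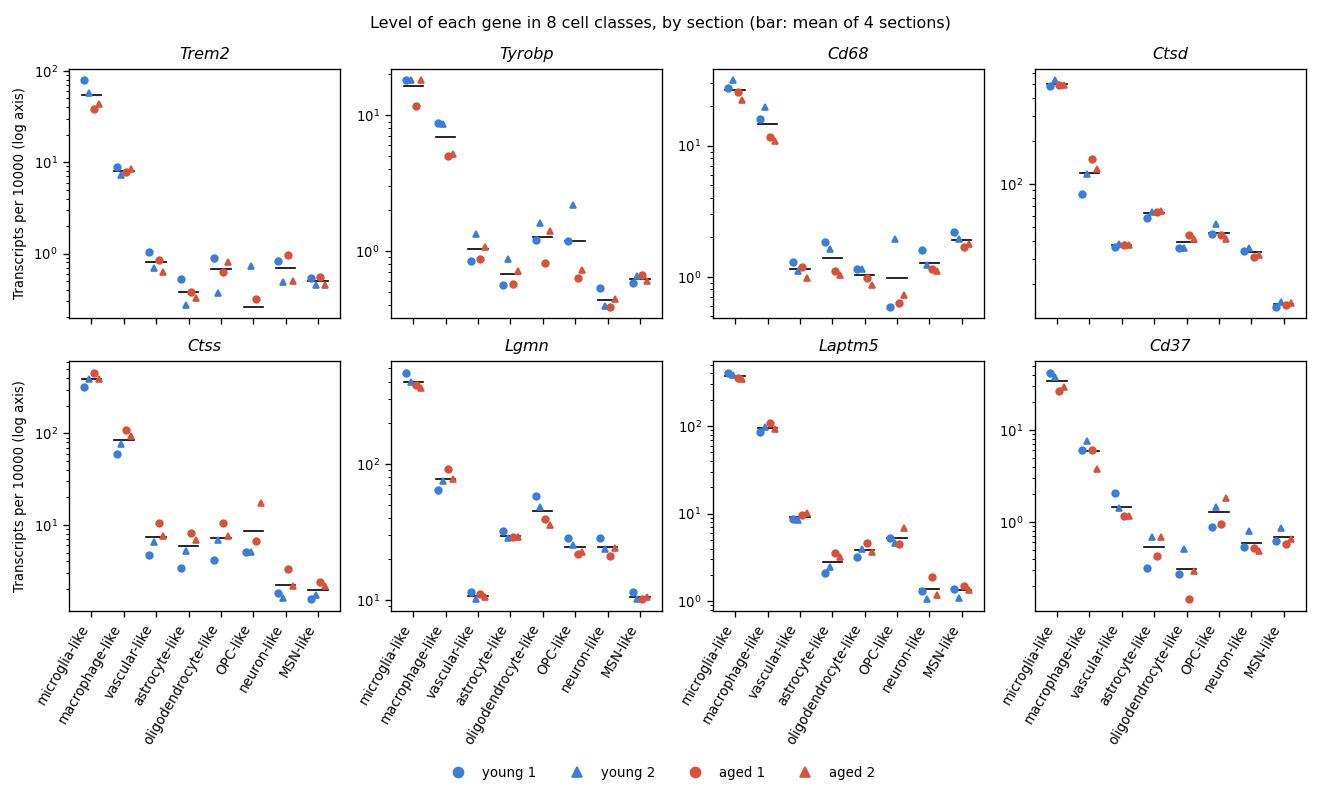
Transcripts per 10000 (log axis) of each gene in 8 cell classes, where points are the 4 sections and bars their means (MSN, medium spiny neuron). Trem2 was at 0 in 2 sections of OPC-like cells, which a log axis cannot show, and in every panel the microglia-like and then the macrophage-like sections sit above all others.

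Tyrobp, the adaptor that Trem2 signals through, was at 18.1, 18.2, 11.7 and 18.2 in microglia-like cells of young 1, young 2, aged 1 and aged 2. It reached 6.89 ± 2.08 (SD, n = 4 sections) in macrophage-like cells, a ratio of the class means of 2.40. The further classes had means from 0.437 in neuron-like to 1.26 in oligodendrocyte-like cells. Cd68, long used to stain phagocytes, had the smallest ratio of both phagocyte classes, 1.83, with 26.6 ± 3.95 against 14.6 ± 4.17. Its means in the further classes ran from 0.975 in OPC-like to 1.91 in medium spiny neuron-like cells. With mixed cells kept, Cd68 was at 14.4, 16.6, 14.1 and 11.8 in microglia-like cells of the sections in the same order. In macrophage-like cells it was then at 17.3, 22.1, 11.6 and 14.5, lower than in microglia-like cells in aged 1 alone. Tyrobp then ran from 7.355 to 10.85 in microglia-like and from 3.35 to 7.95 in macrophage-like cells.

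Laptm5, a lysosomal protein of blood-lineage cells, stood at 373 ± 25.9 in microglia-like and 96.1 ± 10.5 in macrophage-like cells (SD, n = 4 sections). Vascular-like cells came next at 9.21 ± 0.804, apart from OPC-like cells at 5.32 ± 1.11. Cd37 stood at 33.9 ± 7.19 and 5.90 ± 1.60 in the phagocytes and at means of 0.306 to 1.45 elsewhere.

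The 3 lysosomal proteases differed in how far they reached beyond phagocytes. Ctsd, an aspartic protease, was at 498 ± 22.4 in microglia-like, 120 ± 27.2 in macrophage-like and 62.7 ± 3.17 in astrocyte-like cells (SD, n = 4 sections). Its lowest class, medium spiny neuron-like cells, still held 14.4 ± 0.455. OPC-like, oligodendrocyte-like and vascular-like cells followed each other behind astrocyte-like cells with overlapping sections. Lgmn, which also activates other proteases, stood at 399 ± 46.4 and 76.9 ± 10.98 in the phagocytes. Oligodendrocyte-like cells came next with 45.3 ± 10.2, apart from astrocyte-like cells at 29.7 ± 1.80. Ctss, the cathepsin of antigen-presenting cells, was at 390 ± 55.3 and 83.9 ± 21.3 in the phagocytes and at means of 1.96 to 8.56 in all further classes. Levels of one gene are not set against those of another, since probes differ between genes.

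Microglia-like cells, mixed cells included here, were 3.25 to 3.76% of the kept cells and held 2.16 to 2.39% of all transcripts. They held 56.9 to 64.7% of the Laptm5 transcripts and 51.0 to 57.2% of those of Ctss. For Trem2 the share was 53.7% and 52.7% in the young and 37.1% and 46.2% in the aged sections. The shares were lower for Cd37 (34.1 to 42.4%) and Tyrobp (22.04 to 27.1%), and lowest for Lgmn (17.2 to 20.1%), Cd68 (16.0 to 19.8%) and Ctsd (16.0 to 17.5%). Neuron-like cells held 39.7 to 50.3% of the Ctsd and 41.7 to 50.8% of the Lgmn transcripts, against 17.5 to 19.0% of those of Ctss.

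The 3 panel genes most like each gene were found by Pearson's r over the means of 8 classes on the log2(per 10000 + 0.1) scale, as a description. Trem2 was closest to Il1a (r = 0.985), P2ry13 and Tmem119 (both 0.984). Tyrobp was closest to C1qb (0.994), a subunit of complement C1q. Ctss (0.990) and Laptm5 (0.993) were both closest to Csf1r, the receptor for the growth factor that keeps microglia alive. Cd68 was closest to P2ry13 (0.976). Itgam, an integrin subunit of myeloid cells, was among the 3 genes most like Ctsd (0.963), Lgmn (0.8985) and Cd37 (0.972). The points share libraries and panel totals, and the 2 phagocyte classes lie above all others for each of the 8 genes.

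Transcripts of one cell can be assigned to the segmented cell beside it, so levels in the other classes were set by distance to a phagocyte. Cells with the centre of a microglia-like or macrophage-like cell within 15 µm were set beside cells with none within 30 µm, without a test. Ctss was higher near a phagocyte in all 4 sections in each of 5 classes. In astrocyte-like cells it was 16.6 near and 5.24 far on average, with section ratios from 2.22 to 3.998. In oligodendrocyte-like cells the means were 13.2 and 6.86, and in vascular-like cells 10.3 and 7.18. Laptm5 was also higher near a phagocyte in all 4 sections of these 5 classes, with 6.65 against 2.66 in astrocyte-like and 14.9 against 8.55 in vascular-like cells. OPC-like cells had only 79 near cells and are left out of this comparison.

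**Figure D2:**
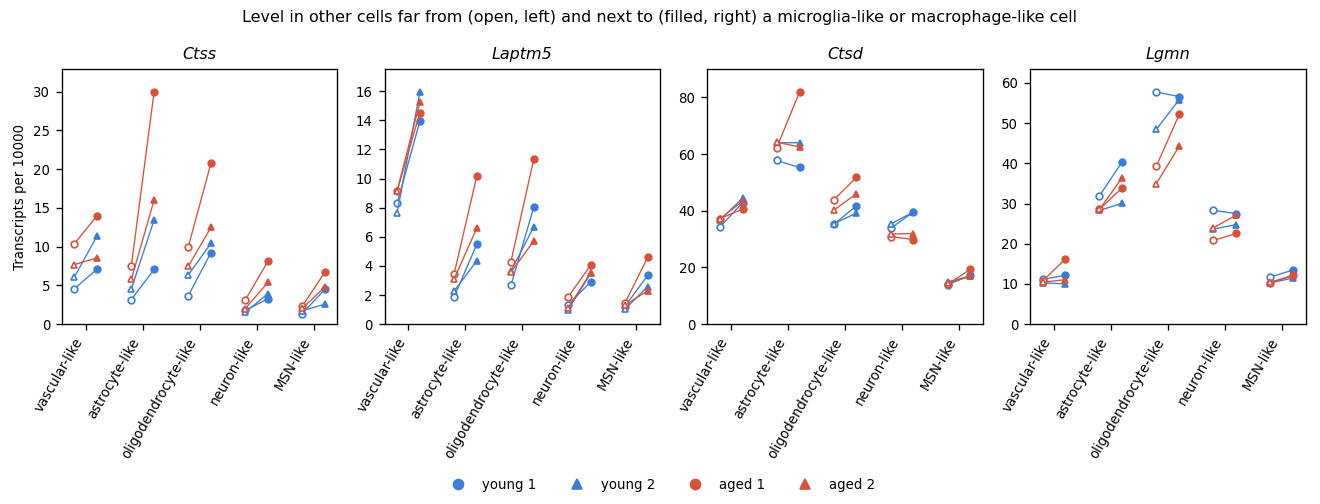
Transcripts per 10000 of 4 genes in cells of 5 other classes, with cells far from a phagocyte and cells near one shown for each section. Ctss and Laptm5 are higher near a phagocyte in every section, while Ctsd in astrocyte-like cells (62.1 far and 66.0 near on average) and Lgmn in neuron-like cells (24.2 and 25.5) differ less, with aged 1 the highest near point for Ctsd.

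Ctsd and Lgmn kept most of their level far from phagocytes, though Ctsd was higher near one in all 4 sections of oligodendrocyte-like, vascular-like and medium spiny neuron-like cells (ratios from 1.09 to 1.38) and Lgmn in all 4 of astrocyte-like and medium spiny neuron-like cells (1.06 to 1.28). Ctsd in astrocyte-like cells was 62.1 far and 66.0 near, with section ratios from 0.957 to 1.32. Lgmn in oligodendrocyte-like cells was 45.1 far and 52.2 near, with ratios from 0.980 to 1.33. For Trem2, Tyrobp, Cd68 and Cd37, the section with the fewest transcripts held at most 14 in the near cells of any class, so near and far were not ordered.

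White and grey matter were set by neighbours alone. A cell lay in white matter when at least 40% of the kept cells within 100 µm were oligodendrocyte-like, and in grey matter when under 20% were. White matter held 28, 33, 87 and 67 microglia-like cells in young 1, young 2, aged 1 and aged 2, and grey matter 704, 839, 728 and 730, so white matter values are the less precise. Ctss, Lgmn and Laptm5 were higher in white matter in each of the 4 sections, as were 12.9% of the 264 genes tested, and Trem2 was lower in each, as were 24.6%. By edgeR's quasi-likelihood test 50 genes (18.9%) passed an adjusted p of 0.05, and 0 of the 8 were among them. At an unadjusted p under 0.05 there were 91 genes (34.5%) and 1 of the 8, and DESeq2 and limma also called 0 of the 8.

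Ctss came nearest to a zone difference. It was 349, 395, 590 and 525 per 10000 in white matter of young 1, young 2, aged 1 and aged 2, and 317.5, 391, 437 and 385 in grey matter of the same sections. The ratio of white to grey matter was 1.1 and 1.011 in the young and 1.35 and 1.36 in the aged sections (log2 fold change 0.30 ± 0.14 SE, edgeR adjusted p = 0.126). Ctss passed when young replicate 1 was left out (edgeR adjusted p = 0.0375). Lgmn and Laptm5 had ratios of 1.01 to 1.21 and of 1.003 to 1.142 (edgeR adjusted p = 0.204 and 0.451). Trem2 had ratios of 0.893 to 0.999 (edgeR adjusted p = 0.894).

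The zone result depended on which cells were left out as mixed. With mixed cells kept, Ctss and Lgmn passed (edgeR adjusted p = 0.0308 and 0.0113). When a cell was left out only if the summed markers of another class outweighed its own, Ctss, Lgmn and Tyrobp passed (edgeR adjusted p = 0.0130, 0.00498 and 0.0407). With mixed cells left out by the first rule, oligodendrocyte markers took 110 to 170 of 10000 in white matter and 51.2 to 67.0 in grey matter microglia-like cells, and their part in these values was not tested.

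Ctsd differed between zones in opposite directions by age. In the young sections it was 391 and 432 in white against 490 and 533 in grey matter. In the aged sections it was 695 and 587 in white against 452 and 480 in grey matter. The ratio of white to grey matter was 0.798 and 0.811 in the young and 1.54 and 1.22 in the aged sections, which do not overlap.

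**Figure D3:**
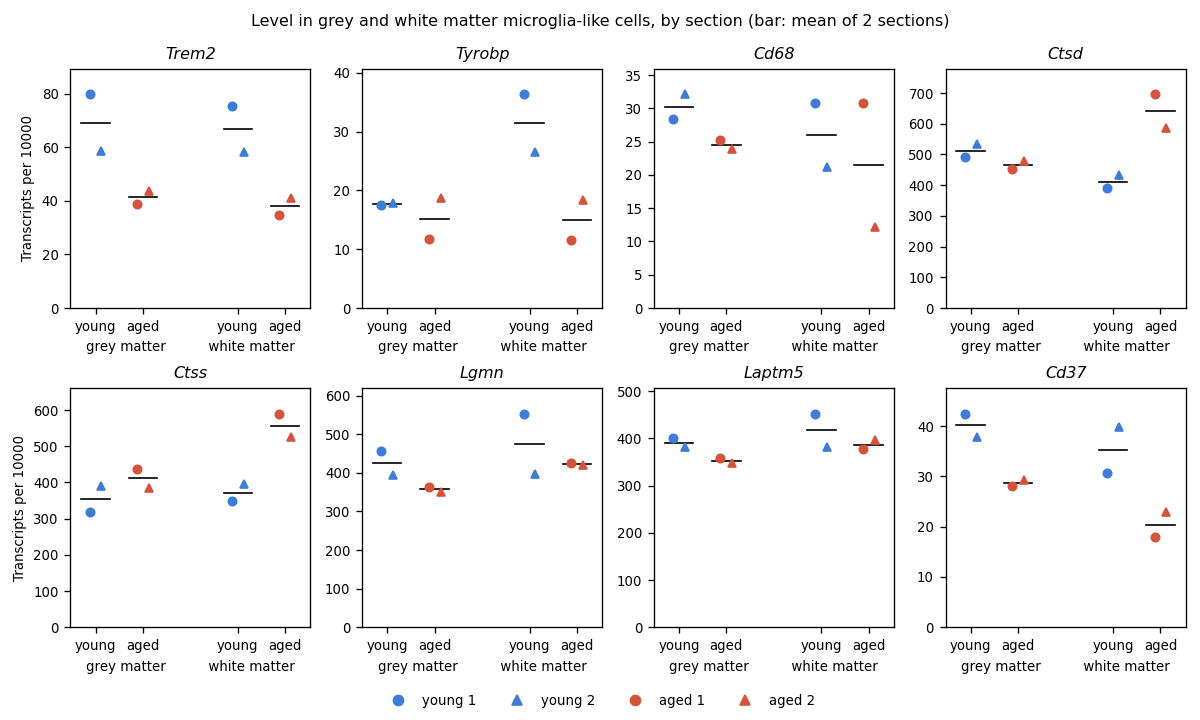
Transcripts per 10000 of each gene in microglia-like cells of grey and white matter by age, where points are sections and bars the mean of 2. Trem2 is lower in the aged sections in both zones, while Ctsd is lower in aged grey matter (452 and 480) and higher in aged white matter (695 and 587).

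The difference between the age changes of both zones was tested as an interaction term with the section as a block. Ctsd had the lowest p of the 8 genes, with a log2 difference of 1.04 ± 0.19 SE, and did not pass after adjustment over 264 genes (edgeR adjusted p = 0.0692). By edgeR 0 of the 264 genes passed (0.0%), and 14 of them (5.3%), 3 of the 8 included, had an unadjusted p under 0.05. DESeq2 and limma called 0 genes. The median of all genes in this test was 0.16 with TMM scaling, 0.013 with RLE size factors and -0.11 with library totals, and relative to it Ctsd stood at 0.87 under each of the 3. Ctsd passed with RLE size factors and with library totals (edgeR adjusted p = 0.00319 and 0.00151). The log2 difference of Ctsd was above 0 in all 15 alternatives, at 0.53 to 1.08. It also passed without a filter on low counts and with markers of other classes left out (edgeR adjusted p = 4.14e-06 and 0.000746). It did not pass with mixed cells kept or set by summed markers (edgeR adjusted p = 0.0963 and 0.866). Without young replicate 1, young replicate 2, aged replicate 1 or aged replicate 2 it was 0.86, 0.95, 0.70 and 1.08. Each of those fits leaves 1 section in an age. Ctss followed with 0.63 ± 0.16 SE (edgeR adjusted p = 0.304), above 0 in all 15 alternatives, of which 0 passed. The C1q genes, looked up after values were seen, also lay above 0 in this test. C1qa was at 1.04 ± 0.29 SE (edgeR adjusted p = 0.3925), C1qb at 0.55 and C1qc at 0.33.

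Macrophage markers in white matter microglia-like cells ran from 8.38 to 64.2 per 10000, highest in aged 1, where Ctsd was also highest, and 6 of the 7 were at 0 in at least 1 section. Ctsd in macrophage-like cells was 84.7 to 150 and in oligodendrocyte-like cells 35.4 to 44.2, against 391 to 695 in white matter microglia-like cells. The part of either class in the white matter values was not tested.

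By the share of oligodendrocyte-like neighbours, Ctsd in the aged sections was 433 and 465 where under 10% of neighbours were of that class, and 742 and 586 where at least 60% were. In the young sections it was 491 and 537.5 at the low end and 360 and 507.5 at the high end. The highest bin held 8 microglia-like cells in its thinnest section and the bin from 40 to 60% held 19. Without the highest bin, the high end is 475 and 588 in the aged and 401 and 385 in the young sections. Without both bins it is 531 and 482 in the aged and 464 and 572 in the young sections, which overlap.

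**Figure D4:**
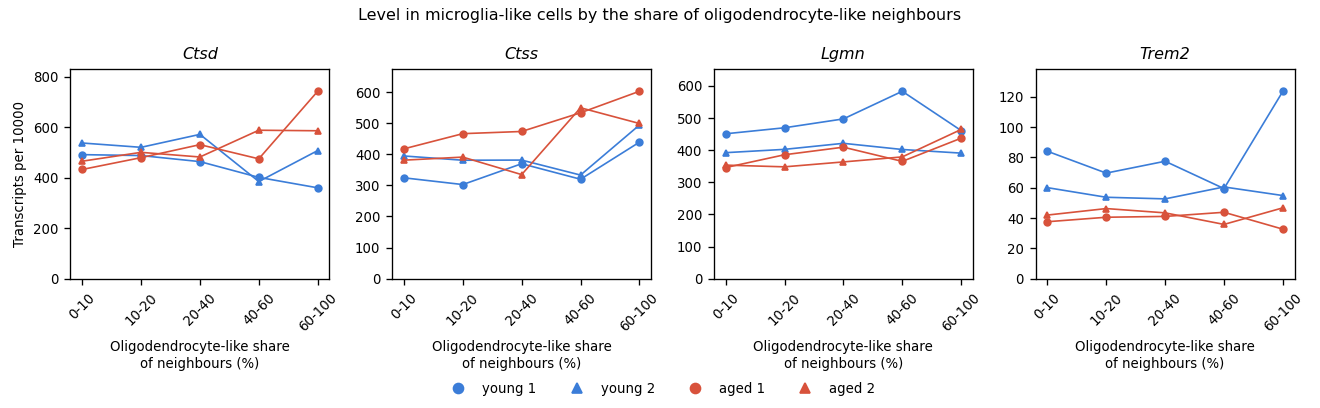
Transcripts per 10000 of 4 genes in microglia-like cells against the share of oligodendrocyte-like cells among neighbours within 100 µm, by section. Ctsd and Ctss of the aged sections lie above the young ones in the highest bin, whose thinnest section has 8 cells, and Trem2 of the aged sections lies below the young ones in every bin.

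With age, 7 of the 8 genes had a log2 change below 0 in microglia-like cells, as had 47.9% of the 317 genes tested, and 5 of the 8 were lower without overlap of the sections, as were 13.2%. By edgeR 0 of the 8 passed, and 1 of 317 genes did (0.315%), Calb1, a calcium-binding protein of neurons named after its value was seen. At an unadjusted p under 0.05 there were 55 genes (17.4%), 5 of the 8 among them. DESeq2 called Trem2 and Cd37 among 4 genes, and limma called 0. The median log2 change of the 8 was -0.43, beside 0.031 for all genes tested. Fitted changes use TMM scaling and so differ from ratios of the printed levels. With library totals in its place the median of all genes was 0.21, and relative to the median Trem2 stood at -0.95 under both.

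Trem2 had the largest change of the 8, from 79.3 and 58.1 to 38.7 and 43.5 per 10000, or 68.7 ± 15.04 against 41.1 ± 3.41 (mean ± SD, n = 2 sections each). The higher aged section lay below the lower young one. The log2 fold change was -0.92 ± 0.20 SE with an edgeR adjusted p of 0.119. It was below 0 in all 14 alternatives. It passed by DESeq2 (adjusted p = 0.000498) and without a filter on low counts (edgeR adjusted p = 0.0142). With a section left out, which leaves 1 section in an age, the change ran from -1.13 to -0.68. With mixed cells kept the change was -0.54. Cd37 came next, at 41.8 and 37.9 in the young and 26.4 and 29.4 in the aged sections, again without overlap (log2 fold change -0.69 ± 0.18 SE, edgeR adjusted p = 0.227, DESeq2 adjusted p = 0.0243).

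Lgmn was at 464.5 and 397 in the young and 376 and 359 in the aged sections. Laptm5 was at 406 and 380 against 356 and 349, and Cd68 at 27.5 and 31.5 against 25.5 and 22.1. None of these 3 overlapped between ages, and their edgeR adjusted p lay between 0.236 and 0.242. With mixed cells kept, Lgmn (240 and 220 against 231 and 194) and Laptm5 (199 and 203 against 211 and 176) overlapped. Cd68 did not (14.4 and 16.6 against 14.1 and 11.8). Tyrobp was low in aged 1 alone, at 11.7 beside 18.1 to 18.2 in the other sections. Ctss was at 323 and 390 in the young and 458 and 387 in the aged sections, and Ctsd at 484 and 532 against 488 and 489, both overlapping.

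In grey matter, which held most microglia-like cells, Trem2 passed the test. It fell from 79.7 and 58.4 to 38.8 and 43.8 per 10000 (fitted log2 fold change with TMM scaling -0.93 ± 0.19 SE, edgeR adjusted p = 0.0319). Scaled by library totals, as the printed levels are, the fitted change was -0.74 (edgeR adjusted p = 0.05525). It was 1 of 3 genes called of 304 tested (0.987%). The other calls, named after their values were seen, were Calb1 and Gfap, genes known from neurons and astrocytes, which rose 4.49-fold and 2.55-fold in the fit. Astrocyte markers in the same cells stood at 68.5 and 95.2 in the young and 140 and 119 in the aged sections. Microglial markers stood at 3455 and 3381 in the young and 3077 and 3099 in the aged sections.

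The Trem2 call in grey matter was not stable, though its change was below 0 in all 15 alternatives that changed the cells or the fit, from -1.17 to -0.62. It passed in 5 of them, DESeq2 included (adjusted p = 0.000588). It did not pass in the other 10, among them with RLE size factors (edgeR adjusted p = 0.0750). Among those 10 were also the fits without young replicate 1, young replicate 2 or aged replicate 1, at -0.68, -1.17 and -0.85. Each of these fits leaves 1 section in an age. In striatal grey matter alone, added after the data were seen, the change was -0.90 ± 0.21 SE (edgeR adjusted p = 0.112).

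**Figure D5:**
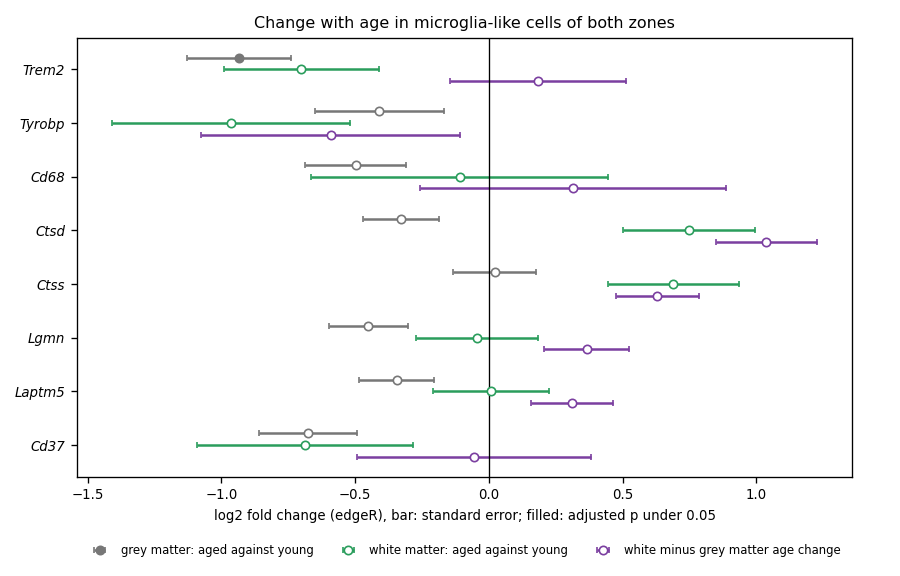
Log2 fold change of each gene with age in microglia-like cells of grey matter and of white matter, and the difference between both, with standard errors. Only Trem2 in grey matter, at -0.93, has an adjusted p under 0.05 (filled), and Ctsd has opposite signs in both zones (-0.33 and 0.75).

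With Trem2, 6 of the 8 genes were lower in aged grey matter without overlap, as were 15.1% of all genes tested. The other 5 were Cd37, Lgmn, Laptm5, Cd68 and Ctsd, with log2 fold changes of -0.68, -0.45, -0.35, -0.50 and -0.33 and edgeR adjusted p between 0.139 and 0.188. DESeq2 also called Cd37 and Lgmn (adjusted p = 0.0322 and 0.0395). With mixed cells kept, Ctsd (245 and 295 against 278 and 256) overlapped between ages. Lgmn (236 and 215 against 220 and 186) and Laptm5 (200 and 202 against 210 and 174) overlapped as well. Their log2 changes were then -0.05, -0.18 and -0.09, while Trem2 and Cd37 stayed lower without overlap (-0.62 and -0.30).

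In white matter both cathepsins were higher in the aged sections. Ctsd was at 391 and 432 in the young and 695 and 587 in the aged sections (log2 fold change 0.75 ± 0.25 SE, edgeR adjusted p = 0.401). Ctss was at 349 and 395 against 590 and 525 (log2 fold change 0.69 ± 0.25 SE, edgeR adjusted p = 0.401). Neither overlapped between ages, as was so for 16.0% of the 81 genes tested in this direction. C1qa, looked up after values were seen, changed by a log2 of 0.77 ± 0.29 SE (edgeR adjusted p = 0.4536). C1qb changed by 0.08 and C1qc by -0.03, and the 2 measured lipid carriers had a median of 0.94. Trem2, at 75.4 and 58.4 against 34.6 and 41.2, was lower (log2 fold change -0.70 ± 0.29 SE, edgeR adjusted p = 0.512). With Tyrobp and Cd37, which rest on as few as 9 and 11 transcripts in a section, 3 of the 8 were lower without overlap, as were 24.7% of the genes. By edgeR 0 of the 81 genes passed (0.0%), as by DESeq2 and limma, and 7 (8.64%) had an unadjusted p under 0.05, 3 of the 8 among them.

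Other gene lists give the setting in microglia-like cells. Of the 7 homeostatic genes, which are also the markers that named the class, 0 passed with age by edgeR and 5 had an unadjusted p under 0.05, with 7 of 7 below 0 and a median log2 change of -0.40. Over all genes 0.315% passed, 17.4% had an unadjusted p under 0.05, 47.9% were below 0 and the median was 0.031. Of the 3 C1q genes 0 passed (2 unadjusted, median -0.37), and of the 8 phagocytic receptors and adaptors 0 (2 unadjusted, median -0.22). Of the 7 measured genes of the lysosome and antigen presentation 0 passed (2 unadjusted, median 0.045), of the 3 lipid carriers 0 (1 unadjusted, median 0.41) and of the 9 measured inflammatory genes 0 (1 unadjusted, median -0.37). Over all 317 genes DESeq2 called 4, of which 2 were Trem2 and Cd37, and limma 0. In grey matter all 7 homeostatic genes were below 0 with age, 6 at an unadjusted edgeR p under 0.05 and 2 without overlap. All 3 C1q genes were also below 0, 2 without overlap, and 0 of either list passed. Median log2 changes there were -0.40 and -0.41 for these lists, -0.43 for the 8 genes and 0.049 for all genes tested. Inflammatory genes stood at -0.41, receptors and adaptors at -0.25, lysosome and antigen presentation at -0.033 and lipid carriers at 0.40.

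Between zones 3 of 36 list genes passed (8.33%, beside 18.9% of all genes), all with a higher fitted level in white matter. Cd84, a receptor of leukocytes, was at 120, 164.5, 172 and 155.5 per 10000 in white matter of young 1, young 2, aged 1 and aged 2, and at 91.1 to 111 in grey matter, or 1.58-fold higher in the fit (edgeR adjusted p = 0.00651). Lyz2, lysozyme, was at 0, 13.3, 34.6 and 6.10 in white matter and at 2.48, 3.58, 7.76 and 4.87 in grey matter (edgeR adjusted p = 0.0171), so not higher in every section. Tnf, a cytokine, rested on 18 transcripts in white matter (edgeR adjusted p = 0.00603).

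Macrophage-like cells numbered 73, 115, 111 and 107 in young 1, young 2, aged 1 and aged 2. Tyrobp was at 8.80 and 8.57 in the young and 4.99 and 5.19 in the aged sections (log2 fold change -0.84 ± 0.36 SE, edgeR adjusted p = 0.444). With Cd68, 2 of the 8 were lower without overlap, as were 18.4% of the 234 genes tested. Ctsd was at 84.7 and 117 against 150 and 127, Ctss at 58.9 and 75.8 against 108 and 92.9, and Lgmn at 64.4 and 74.4 against 90.9 and 77.8. These 3 were higher without overlap, as were 26.9% of the genes. In the same cells the microglial markers stood at 281 and 408 in the young and 418 and 452 in the aged sections, also without overlap, with 6 of 7 above 0, 4 of 7 higher without overlap and a median log2 change of 0.28, and their part in these values was not tested. With mixed cells kept Lgmn overlapped, at 78.4 and 79.8 against 80.4 and 72.8. Trem2 overlapped, at 8.80 and 7.22 against 7.76 and 8.49. By edgeR 0 of the 234 genes passed (0.0%), as by DESeq2 and limma, and 25 (10.7%) had an unadjusted p under 0.05, 1 of the 8 among them. Whether these changes differ from those in microglia-like cells was not tested.

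Over all kept cells, 5 of 383 genes passed with age (1.31%) and 0 of the 8 by edgeR, DESeq2 or limma. In such sums, fewer cells of a type and less RNA per cell cannot be told apart. Ctss was the 1 gene of the 8 with an unadjusted p under 0.05, as had 8.62% of all genes, at 6.84 and 8.19 in the young and 11.8 and 8.95 in the aged sections (log2 fold change 0.50 ± 0.21 SE, edgeR adjusted p = 0.531). Trem2 was at 1.54 and 1.117 against 1.18 and 1.04, overlapping. Cxcl10, a chemokine on the inflammatory list, was among the 5 and rose 1.96-fold (edgeR adjusted p = 0.0468).

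In the 6 other classes, 44 pairs of a gene and a class could be tested with age, and 0 passed by edgeR, 2 by DESeq2 and 0 by limma. The share of all genes called was 0.0% in neuron-like and in medium spiny neuron-like, 0.522% in vascular-like, 2.45% in OPC-like, 4.51% in oligodendrocyte-like and 5.05% in astrocyte-like cells. Ctss was higher in the aged sections without overlap in each class, with log2 changes from 0.49 in medium spiny neuron-like to 1.18 in OPC-like cells. Of all genes, 17.8% did so in medium spiny neuron-like, 13.6% in neuron-like, 21.9% in vascular-like, 20.5% in astrocyte-like, 31.8% in oligodendrocyte-like and 24.5% in OPC-like cells. In astrocyte-like cells it was at 3.39 and 5.14 in the young and 8.15 and 6.93 in the aged sections (log2 fold change 0.82 ± 0.27 SE, edgeR adjusted p = 0.0547, DESeq2 adjusted p = 0.0439). In vascular-like cells it was at 4.70 and 6.53 against 10.4 and 7.65 (edgeR adjusted p = 0.122). In OPC-like cells it was at 5.03 and 5.11 against 6.68 and 17.4, so that the change rested on aged 2. The log2 change was 0.36 without that section and 1.65 without aged 1. In oligodendrocyte-like cells it was at 4.15 and 6.81 against 10.55 and 7.66 (edgeR adjusted p = 0.246). The classes share the same 4 sections, and Ctss was also higher in cells near a phagocyte. The homeostatic microglial genes had a median log2 change of 0.50 in astrocyte-like (4 of 7 higher without overlap), 0.44 in vascular-like (4 of 7), 0.45 in OPC-like (3 of 4 tested), 0.097 in oligodendrocyte-like (2 of 7), 0.031 in neuron-like (1 of 7) and -0.036 in medium spiny neuron-like cells (2 of 7). The part of microglial transcripts in the age values of Ctss was not tested.

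Lgmn in oligodendrocyte-like cells went the other way, at 58.3 and 48.2 in the young and 39.1 and 35.4 in the aged sections (log2 fold change -0.59 ± 0.18 SE, edgeR adjusted p = 0.0949, DESeq2 adjusted p = 0.0175). Ctsd in the same cells was at 35.5 and 35.4 against 44.2 and 41.0 (edgeR adjusted p = 0.597). Neither overlapped between ages. Of all genes, 19.4% were lower there without overlap, as Lgmn was, and 31.8% were higher, as Ctsd was. Ctsd in astrocyte-like cells was at 58.0 and 64.1 against 63.7 and 65.0, which overlap.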

How the data were processed

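The authors decoded transcripts with MERLIN and deposited raw counts per gene and segmented cell for 4 sections, with each cell's volume (deposited as a signal in cubic micrometres) and centre. A genome build for the probes is not given in the sources used here. No column of a comparison by the authors was used, and the authors' deposited mean signal per cell was not used for any result. The 8 genes and the gene lists were chosen with earlier results of these data known. The named genes are the 8, list genes past the threshold (up to 4 per list) and the 3 genes most like each of the 8, of which some are not reported here.

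Cells with at least 10 genes and 50 cubic micrometres were kept and clustered without the 8 genes (Louvain, 15 components, 20 neighbours, resolution 0.08; Python 3.11.15, numpy 2.4.6, scipy 1.17.1, scikit-learn 1.9.0, igraph 0.11.9). No doublet caller was run; mixed cells were left out by markers. Re-clustered microglia-like cells held no cluster led by Mrc1 and Ms4a7, so macrophage-like cells were taken from the vascular-like cluster (resolution 1.0), a rule made after seeing the data. A low-depth cluster of 1087 cells led by H2-Eb1, Cd74 and Lyz2 (median 42 transcripts) stayed microglia-like.

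Counts were summed per section and class and tested with edgeR 4.0.16 (quasi-likelihood, TMM, Benjamini-Hochberg over all genes tested, threshold 0.05; R 4.3.3), since sections and not cells are replicates. Each SE was computed from the log2 change and the F statistic. An exact permutation test of 2 against 2 sections cannot go below 0.333. DESeq2 1.42.0, limma 3.58.1 (on log2(per 10000 + 0.1)), other scalings, filters, mixed-cell rules, zones and left-out sections were alternatives. On simulated counts for 315 genes with age in microglia-like cells, 52% of genes changed by a log2 of 0.5, 78.5% of those changed by 1 and 100% of those changed by 2 were called, with 9 of 150 unchanged genes. Between zones (256 genes) it was 17.4%, 50% and 85.4%, with 10 of 115 unchanged. The simulation used the same fixed dispersion for every gene, not estimated from these sections. These shares are therefore not the power of the tests on the real data.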

Additional observations from a re-analysis of the deposited data

Results flagged for a closer look

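Ctsd in microglia-like cells had a white to grey matter ratio below 1 in the young (0.798 and 0.811) and above 1 in the aged sections (1.54 and 1.22). The log2 difference between the age changes was 1.04 and did not pass (edgeR quasi-likelihood test, unadjusted p = 0.000262, adjusted p = 0.0692). DESeq2 and limma did not call it (adjusted p = 0.247 and 0.866). It passed with RLE size factors and with library totals (edgeR adjusted p = 0.00319 and 0.00151). With mixed cells set by summed markers it was 0.53 (edgeR adjusted p = 0.866). The young white matter sums held 28 and 33 cells.

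Lgmn differed in sign between both phagocyte classes with age, and neither change passed. It was at 464.5 and 397 in the young against 376 and 359 in the aged sections in microglia-like cells (edgeR adjusted p = 0.236), and at 64.4 and 74.4 against 90.9 and 77.8 in macrophage-like cells (log2 change 0.20 ± 0.25 SE, edgeR adjusted p = 0.850). The log2 changes differed by 0.61, and this difference was not tested. In macrophage-like cells the change turned to -0.04391 with mixed cells kept and to -0.0864 with mixed cells set by summed markers.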

How the results depend on the processing

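There were 2 sections per age, and 28 microglia-like cells in the smallest white matter sample. An age fit with a section left out leaves 1 section in an age, so calls in such fits add no replication. Of the 8 genes, the number called with age in microglia-like cells was 0, and 2 with DESeq2, 1 without a filter on low counts and 0 to 1 with a section left out. In grey matter it was 1, and 3 with DESeq2, 0 with limma, RLE size factors, library totals, no filter, resolution 0.3, other classes' markers left out or striatal grey matter alone, and 0 to 1 with a section left out. Between zones it was 0, and 2 with mixed cells kept, 3 with mixed cells set by summed markers and 0 to 1 with a section left out. For age by zone it was 0, and 1 with RLE, library totals, no filter or other classes' markers left out, and 0 to 1 with a section left out. Of the 44 pairs in other classes it was 0, and 2 with DESeq2 (Ctss in astrocyte-like, Lgmn in oligodendrocyte-like cells), 2 at resolution 0.3 (Ctss and Lgmn in OPC-like cells) and 0 to 1 with a section left out. In white matter, macrophage-like cells and all kept cells it was 0 under every alternative run. Over all alternatives, genes called ranged from 0 to 10 with age in microglia-like cells (1 in the main setting), 0 to 8 in white matter (0), 0 to 14 in grey matter (3), 29 to 148 between zones (50), 0 to 10 for age by zone (0), 0 to 6 in macrophage-like cells (0) and 0 to 5 over all kept cells (5). White matter from 50% leaves the grey matter cells as they are and was not counted there. Of the 3 calls in grey matter 2 were higher, and of the 3 with library totals 3 were.

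Same-numbered sections did not deviate together (r = -0.08 over 310 genes), so the numbers were not taken as pairs. With the replicate number as a block, 0 of the 8 were called with age in microglia-like cells (0 genes in all), 0 in white matter, 0 in grey matter (Trem2 -0.92), 0 in macrophage-like and 0 over all kept cells, and 1 of the pairs in other classes (Lgmn in oligodendrocyte-like cells). The block could not be added to the zone fits, where the section already is the block.

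Some log2 changes changed sign, among them Cd37 between zones (-0.31), Cd68 for age by zone (0.31), Ctsd with age in microglia-like cells (-0.24) and Lgmn in macrophage-like cells (0.20), and the cause was not tested. With age in microglia-like cells Ctsd became 0.07005 with mixed cells kept and 0.0005068 by summed markers. In white matter Lgmn became 0.0353 with mixed cells kept, and Laptm5 -0.10 with limma, -0.08535 with library totals, -0.11 by summed markers, -0.006711 with markers left out and -0.12 within 50 µm. In grey matter Ctss became -0.03255 with no filter. Between zones Trem2 became 0.05596 at resolution 0.3 and 0.0009118 within 50 µm, Cd68 0.13 and 0.12 and Cd37 0.0636 and 0.06175 with mixed cells kept and by summed markers, Ctsd -0.04227 and Laptm5 -0.02263 with no filter, and Laptm5 -0.004945 with white matter from 50%. For age by zone Trem2 became -0.08579 with limma, -0.0871 with library totals and -0.11 from 50%, Cd68 -0.09483 with limma and -0.11 by summed markers, and Cd37 0.05263 with mixed cells kept, 0.04021 at resolution 0.3 and 0.10 within 50 µm. In macrophage-like cells Trem2 became 0.02666 with limma and 0.04141 with library totals, and Lgmn -0.04391 with mixed cells kept and -0.0864 by summed markers. Over all kept cells Ctsd became -0.003007 with DESeq2, -0.03406 with limma, -0.003009 with RLE and -0.03602 with library totals.

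With a section left out, the ranges that crossed 0 were -0.07341 to 0.20 for Ctss with age in microglia-like cells. In white matter they were -0.97 to 0.43 for Cd68, -0.23 to 0.16 for Lgmn and -0.06965 to 0.08931 for Laptm5, and in grey matter -0.11 to 0.15 for Ctss. Between zones they were -0.13 to 0.002541 for Trem2, -0.51 to 0.0658 for Cd68 and -0.13 to 0.31 for Ctsd. For age by zone they were -0.02453 to 0.11 for Trem2, -0.64 to 0.66 for Cd68 and -0.47 to 0.13 for Cd37. In macrophage-like cells they were -0.20 to 0.08784 for Trem2 and -0.07451 to 0.19 for Laptm5. Over all kept cells they were -0.25 to 0.01195 for Tyrobp, -0.10 to 0.10 for Ctsd and -0.07073 to 0.19 for Laptm5.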
